A study of Mus musculus with 6 samples.

Results

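The genes described here are 8 members of the transitional alveolar state, an intermediate through which epithelial cells of the alveolus pass during repair: Clu, Lgals3, Sfn, Nupr1, Ndrg1, Tnip3, Cd44 and Sprr1a. They were taken by name from a table of 33924 gene names and exclude the keratins of that state. Bulk RNA was sequenced from lung tissue of FVB/NJ mice, an inbred strain, harvested at 6 months. The 3 tumour libraries (replicates 1, 2 and 4) come from lung tumours of mice given urethane, a chemical carcinogen, at 1 g per kg by intraperitoneal injection; the 3 control libraries (replicates 1, 2 and 3) come from normal lung. The treatment protocol gives saline as the alternative to urethane, and the labels of the control libraries name no injection. The labels give neither the dissection of the tumours nor the number of animals, so p-values rest on how far these libraries spread, which may in part be technical variation.

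When the alveolar lining is damaged, alveolar type 2 (AT2) cells, which make surfactant, can divide and turn into flat alveolar type 1 (AT1) cells. On the way they pass through a state marked by keratin 8, stress response genes and genes of cell adhesion, and cells with such a programme have also been described in mouse lung adenocarcinoma. The members cover several of its sides. Clu, Lgals3 and Cd44 act at or outside the cell surface, Sfn, Nupr1 and Ndrg1 belong to stress and growth arrest responses, Tnip3 restrains inflammatory signalling, and Sprr1a is a building block of the squamous cell envelope.

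Libraries held 48509129 to 62336537 counted reads in tumours and 38996532 to 59037341 in control lung. Within a group, every pair of libraries differed beyond counting noise (63.2 to 277 chi-square units per degree of freedom for tumours, 88.6 to 153 for controls), so none was treated as a repeat of another. Tumour replicate 2 stood apart in sex-linked genes, with 3360 CPM (counts scaled to library size) of Xist against at most 32.9 CPM in the other 5 libraries. In tumours 9 of 10 AT2 markers were higher, and the AT2 list summed to 29517 to 66757 CPM in tumours and 10343 to 17047 CPM in control lung. AT1 markers counted 8 lower and 1 higher of 10, and 0 higher without tumour replicate 2 or any 1 control replicate.

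The members did not move as a block. Of the 8, 7 had enough reads to be tested; Clu, Sfn and Cd44 rose in tumours, none fell, and Lgals3, Nupr1, Ndrg1 and Tnip3 did not pass (edgeR's quasi-likelihood test with p adjusted by Benjamini-Hochberg over all genes, threshold 0.05, n = 3 per group). Sprr1a failed the low count filter, with 38 reads over the tumour libraries and 2 over the control libraries. In the same test 18.1% of all 20001 genes tested were higher and 23.8% lower in tumours. The median log2 fold change of the 7 tested members was -0.07, beside 0.01 for all genes tested. In bulk tissue, more or fewer cells of a type and more or less RNA per cell cannot be told apart.

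**Figure D1:**
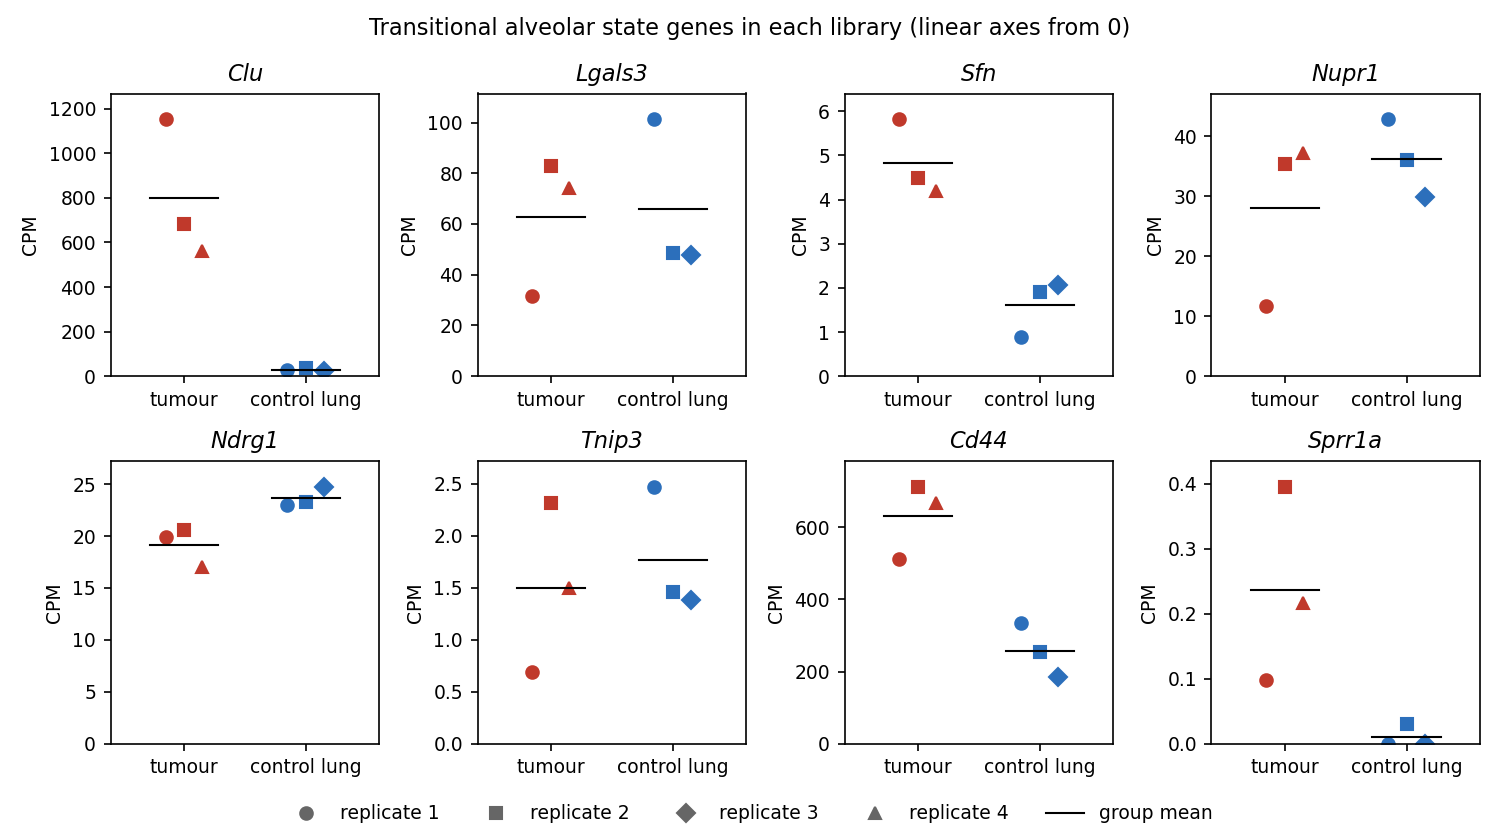
CPM (linear axis from 0) of each of the 8 members in every library, with tumours in red on the left and control lung in blue on the right; the marker shape gives the replicate and the line the group mean. Tumours lie above all controls for Clu, Sfn, Cd44 and Sprr1a, below all controls for Ndrg1, and overlap the controls for Lgals3, Nupr1 and Tnip3.

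Clu encodes clusterin, a secreted chaperone that binds misfolded proteins and lipids; the deposited table places it at chr14:66587320-66600385 (mm9, plus strand). It had 1153, 682 and 562 CPM in tumour replicates 1, 2 and 4, against 27.3, 36.9 and 24.8 CPM in control lung replicates 1, 2 and 3. Every tumour was more than an order of magnitude above every control. All tumours also lay above all controls for Sfn, Cd44 and Sprr1a, as for 26.1% of all genes tested. The means were 799 ± 312 CPM in tumours and 29.6 ± 6.39 CPM in control lung (SD, n = 3 each). Its log2 fold change was 4.75 ± 0.34 (SE), or 26.9-fold, with an edgeR adjusted p = 3.31e-05. Among all genes tested, Clu stood at percentile 99.2 of log2 fold change. Its level per kilobase of exon stood at percentile 99.4 in tumours and 73.1 in control lung. It also passed a test against a 2-fold threshold, which neither Sfn nor Cd44 did (adjusted p = 5.96e-05 for Clu, 0.108 for Sfn and 0.184 for Cd44).

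Cd44 encodes the main cell surface receptor for the matrix sugar hyaluronan and lies at chr2:102651298-102741822 (mm9, minus strand). Tumour replicates 1, 2 and 4 had 513, 713 and 667 CPM of it, against 335, 253 and 185 CPM in control lung. All tumours lay above all controls, with replicate 1 the lowest of the tumours and the highest of the controls. Its means were 631 ± 105 CPM in tumours and 258 ± 75.0 CPM in control lung, with a log2 fold change of 1.29 ± 0.25 and an edgeR adjusted p = 0.00379. Cd44 was already abundant in control lung, at percentile 95.8 of all genes tested per kilobase of exon, and stood at 98.2 in tumours.

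Of the hyaluronan genes listed beside Cd44, 3 fell and 1 other rose in 8 tested. Hyal1 and Hyal2, which encode enzymes that cut hyaluronan, had log2 fold changes of -3.06 ± 0.20 and -1.94 ± 0.28 (edgeR adjusted p = 2.22e-05 and 0.000915). Of the exon bases of Hyal1, 52.3% lie in exons of other gene names. Lyve1, the hyaluronan receptor of lymphatic vessels, had -3.62 ± 0.28, and Hmmr, a hyaluronan-binding protein also active at the mitotic spindle, had 2.57 ± 0.47. The synthase genes Has1, Has2 and Has3 did not pass, with 0.11 ± 0.35, 0.25 ± 0.40 and -0.45 ± 0.19. Spp1, osteopontin, a secreted ligand of CD44, had 1.37 ± 0.54 with an adjusted p = 0.0723, which was 0.000746 without tumour replicate 1.

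Lgals3 encodes galectin-3, a lectin that epithelial cells and macrophages both make, at chr14:47987426-48005835 (mm9, plus strand). Its levels were 31.5, 82.9 and 74.3 CPM in tumour replicates 1, 2 and 4, and 101, 48.5 and 47.8 CPM in control lung replicates 1, 2 and 3. Tumour replicate 1 was the lowest and control replicate 1 the highest of all 6, and the other libraries lay between. The log2 fold change was -0.07 ± 0.41 (edgeR adjusted p = 0.913). Leaving out tumour replicate 1 gave 0.28 and leaving out control replicate 1 gave 0.39, neither with an adjusted p under 0.05. Per kilobase of exon Lgals3 was among the more abundant genes of both tissues, at percentiles 94.3 in tumours and 95.4 in control lung. Of the galectin genes listed beside it, 7 were tested: Lgals1 and Lgals2 fell (-1.73 ± 0.30 and -1.60 ± 0.25, adjusted p = 0.00242 and 0.00139), and Lgals4, Lgals8, Lgals9 and Lgals12 did not pass. Lgals8 passed as higher without tumour replicate 1 (adjusted p = 0.0239) and Lgals9 as lower without tumour replicate 2 (0.0375). Lgals3bp, a secreted partner of galectin-3, rose by 0.66 ± 0.21 (adjusted p = 0.0327), which was 0.0860, 0.107, 0.0674 and 0.0869 without tumour replicate 2 and control replicates 1, 2 and 3, each left out alone.

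Sfn encodes stratifin, the epithelial 14-3-3 protein, a p53 target that holds damaged cells in G2. It lies at chr4:133156471-133158083 (mm9, minus strand). Tumour replicates 1, 2 and 4 had 5.82, 4.49 and 4.19 CPM, against 0.897, 1.90 and 2.07 CPM in control lung replicates 1, 2 and 3. The tumours were close to one another, and all lay above the controls, of which replicate 1 was the lowest. The means were 4.83 ± 0.869 CPM in tumours and 1.62 ± 0.635 CPM in control lung, a log2 fold change of 1.57 ± 0.36 (edgeR adjusted p = 0.00896). Of the 32-base words of its longest transcript in GENCODE M21, 26.1% also occur in another gene model, so some of its reads may not have been counted. The other 6 members of the 14-3-3 family are made by most cells. None of them passed, with log2 fold changes of 0.17 to 0.43, although Ywhae and Ywhaz passed without tumour replicate 1 (adjusted p = 0.0149 and 0.0250). A list of 12 p53 targets without Sfn had 5 higher, none lower and a median of 0.48, with 1 lower without tumour replicate 1 or 2. Its smallest p were those of Cdkn1a, the cell cycle inhibitor p21, at 1.68 ± 0.19, and Zmat3 at 1.24 ± 0.16.

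Nupr1 encodes a small nuclear protein induced by amino acid shortage and endoplasmic reticulum stress, at chr7:133766763-133770524 (mm9, minus strand). It had 11.7, 35.4 and 37.2 CPM in tumour replicates 1, 2 and 4, against 42.8, 36.0 and 29.9 CPM in control lung replicates 1, 2 and 3. Tumour replicates 2 and 4 lay within the control range, and tumour replicate 1 lay below all other libraries. The log2 fold change was -0.37 ± 0.39 (edgeR adjusted p = 0.488), and 0.03 without tumour replicate 1 (adjusted p = 0.900). Of 11 other genes of the ATF4 stress response, 5 rose and 2 fell, with a median of 0.68. The number that fell was 1 without any 1 tumour replicate or control replicate 1, and 0 without control replicate 2 or 3. Psat1, an enzyme of serine synthesis, and Trib3, a pseudokinase induced by ATF4, had the smallest p, with 2.04 ± 0.21 and 2.45 ± 0.30. The paralogue of Nupr1, listed as 4930579G22Rik, had -1.18 ± 0.58 (adjusted p = 0.138).

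The promoter windows of Sfn and Nupr1 are shown because 1 of these stress genes rose and the other did not, while both windows hold the same letters TTGCATCA. These match TGATGNAA, a C/EBP-ATF composite motif, on the strand opposite to the one printed; 3.45% of the 32851 promoter windows in the RefSeq table (GRCm38.p6) hold a match on either strand within 250 bases before the start. The table matched 6 of the 8 members, all but Clu and Ndrg1. The windows below run 5′ to 3′ up to the transcription start on the minus strand of chr4:133602169-133602418 and chr7:126625471-126625720 (GRCm38.p6). Capitals mark the match, which starts 106 bases before the start of Sfn and 110 bases before that of Nupr1, and in Nupr1 also CACGTG, which holds the hypoxia core ACGTG on both strands (16.6% of windows hold that core).
Sfn: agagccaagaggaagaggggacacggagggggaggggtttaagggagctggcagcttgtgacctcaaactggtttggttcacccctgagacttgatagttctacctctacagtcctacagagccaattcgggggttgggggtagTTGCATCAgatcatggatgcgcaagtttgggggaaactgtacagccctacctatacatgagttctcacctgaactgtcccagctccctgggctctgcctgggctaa
Nupr1: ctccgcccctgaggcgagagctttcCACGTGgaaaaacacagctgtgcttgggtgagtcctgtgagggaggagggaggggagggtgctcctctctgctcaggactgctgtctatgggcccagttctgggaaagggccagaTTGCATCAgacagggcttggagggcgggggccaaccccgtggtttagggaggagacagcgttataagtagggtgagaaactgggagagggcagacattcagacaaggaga

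Ndrg1 encodes a cytoplasmic protein induced by hypoxia and differentiation, at chr15:66760883-66801202 (mm9, minus strand). It had 19.9, 20.6 and 17.0 CPM in tumour replicates 1, 2 and 4, against 23.0, 23.3 and 24.8 CPM in control lung. Every tumour was below every control, as for 29.9% of all genes tested, yet the groups lay close together. The log2 fold change of -0.30 ± 0.15 did not pass (edgeR adjusted p = 0.141). Exons of other gene names cover 8.43% of its exon bases. In its own family Ndrg2, a gene of differentiated tissue, fell by 4.12 ± 0.30 on the log2 scale (adjusted p = 3.45e-05), to 2.91 ± 0.917 CPM in tumours against 50.8 ± 13.6 CPM in control lung. Ndrg4 rose by 1.39 ± 0.35 (adjusted p = 0.0126), and Ndrg3 had -0.10 ± 0.15 (adjusted p = 0.632). Of 12 other hypoxia genes 6 were higher and 3 lower, with a median of 0.59. The number higher was 5 without tumour replicate 2 or control replicate 2, and 4 without control replicate 1 or 3. The smallest p were those of Ldha, lactate dehydrogenase A, at 2.06 ± 0.17, and P4ha1, a collagen prolyl hydroxylase subunit, at 1.24 ± 0.15.

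Tnip3 encodes ABIN-3, a partner of the protein A20 that limits NF-kB signalling, at chr6:65540392-65584034 (mm9, plus strand). It was low in both tissues, with 42, 129 and 69 reads in tumour replicates 1, 2 and 4, and 91, 96 and 68 reads in control lung. These were 0.687, 2.32 and 1.5 CPM in tumours and 2.47, 1.46 and 1.38 CPM in control lung, and the groups overlapped. The log2 fold change was -0.23 ± 0.48 (edgeR adjusted p = 0.725), and its sign turned to 0.15 without tumour replicate 1 and 0.08 without control replicate 1. Tnip1, Tnip2 and Tnfaip3, the gene of A20 itself, did not pass either, at -0.53 ± 0.24, -0.04 ± 0.20 and -0.63 ± 0.32. Without tumour replicate 2, Tnip1 and Tnfaip3 passed as lower, with adjusted p = 0.0309 and 0.0348. Of 10 NF-kB target genes, a list that also holds Tnip1 and Tnfaip3, 2 rose and 1 fell, with a median of -0.35, and 4 fell without tumour replicate 2. Cxcl1, a neutrophil chemokine, rose by 4.66 ± 0.52 and Nfkbia, the inhibitor IkB alpha, had -1.32 ± 0.23.

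Sprr1a encodes a small proline-rich protein that is cross-linked into the envelope of squamous cells, at chr3:92287877-92289816 (mm9, minus strand). It had 6, 22 and 10 reads in tumour replicates 1, 2 and 4, against 0, 2 and 0 reads in control lung. In CPM these were 0.0981, 0.395 and 0.217 in tumours, against 0.0304 in control replicate 2 and 0 in the other controls. All tumours were above all controls, at a level where 3 reads equal 0.0490 to 0.0651 CPM in a tumour library. On pooled reads scaled to library size the ratio of tumours to controls was 17.7, with an exact binomial 95% interval of 4.58 to 152 that covers counting error only. Without control replicate 2, which held both control reads, the ratio was 6.69 with 3 counts put in for the remaining controls. This is no lower bound, and the lower limit of the exact interval, from the reads themselves, was 5.18. Without tumour replicate 2 the ratio was 11.3 (2.66 to 102). An edgeR fit without a low count filter tested the gene, with an adjusted p = 0.0165. DESeq2, which applies its own filter on counts, gave an adjusted p = 0.0145. These fits adjusted over 26914 and 23268 genes.

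With all libraries no gene of the squamous SPRR family, Sprr1a included, reached the filter. Of the 15 family names, 12 had no read in tumours and 14 none in control lung. Sprr2a1 and Sprr2a3, the other names with tumour reads, share 96.9% and 72.8% of their 32-base words with another gene. Of 8 basal and squamous markers only Ivl and Trp63 were tested with all libraries; without tumour replicate 4, 1 marker passed as lower. Ivl, involucrin, another envelope protein, had 3.81, 9.86 and 6.47 CPM in tumour replicates 1, 2 and 4, against 0.734, 0.243 and 0.487 CPM in control lung (log2 fold change 3.81 ± 0.52, edgeR adjusted p = 0.00064). The tumours rank in the same order for Ivl as for Sprr1a, but also for Lgals3, Tnip3 and Cd44, so this order is not particular to squamous genes. Trp63, the basal cell transcription factor, had 0.96 ± 0.62 (adjusted p = 0.254, and 0.0452 without tumour replicate 2). It had 2.13, 0.323 and 0.890 CPM in tumour replicates 1, 2 and 4, against 0.652, 0.547 and 0.528 CPM in control lung. Tumour replicate 2 thus lay below every control. The basal keratin gene Krt5 had at most 0.0327 CPM in tumours and 0.0203 CPM in control lung. The marker list summed to 6.34 to 10.3 CPM in tumours and 0.851 to 1.82 CPM in control lung, with 2 genes at 0 in tumours and 2 in control lung. The part of such cells in the Sprr1a reads was not tested.

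The promoter window of Sprr1a is shown because it was the member closest to absent in control lung and carries 2 matches to the AP-1 motif TGANTCA, which 6.75% of all windows hold. Capitals mark these matches, which start 146 and 116 bases before the transcription start, and a TATAAA match (12.4% of windows) at 43 bases. The sequence is RefSeq's, on the minus strand of chr3:92485882-92486131 (GRCm38.p6). The windows of Lgals3, Tnip3 and Cd44 held no match to the AP-1 or the C/EBP-ATF motif.
Sprr1a: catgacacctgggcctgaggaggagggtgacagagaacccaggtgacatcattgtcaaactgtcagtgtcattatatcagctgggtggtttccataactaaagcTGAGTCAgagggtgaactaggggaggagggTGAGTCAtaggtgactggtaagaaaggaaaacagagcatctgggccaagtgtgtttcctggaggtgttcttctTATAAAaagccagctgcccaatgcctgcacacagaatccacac

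Compared per kilobase of exon, which allows levels of different genes to be set side by side, the order of the members differed between the groups. In tumours Clu was the highest, with 232 ± 90.8 CPM per kb, followed by Cd44 with 92.1 ± 15.3, Lgals3 with 33.8 ± 14.8 and Nupr1 with 11.5 ± 5.81. Sfn with 3.0 ± 0.539 and Ndrg1 with 2.91 ± 0.287 CPM per kb overlapped in tumours, as did Tnip3 with 0.386 ± 0.209 and Sprr1a with 0.295 ± 0.186. In control lung Cd44 with 37.7 ± 10.9 CPM per kb and Lgals3 with 35.5 ± 16.5 overlapped at the top. Nupr1 with 14.8 ± 2.64 and Clu with 8.62 ± 1.86 came next in control lung, then Ndrg1 with 3.59 ± 0.145. Sfn with 1.01 ± 0.393 and Tnip3 with 0.455 ± 0.156 CPM per kb overlapped there, and Sprr1a was last with 0.0126 ± 0.0219. Clu was thus below Cd44, Lgals3 and Nupr1 in control lung, and no tumour library had another member above it.

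Because tumours and whole lung differ in cell content, each member was set against 10 general epithelial genes of the same library (Epcam, Cdh1, Cldn7, Esrp1, Grhl2, Elf3, Spint1, Spint2, Prss8 and Rab25). All 10 were higher in tumours, with sums of 990 to 1131 CPM in tumours and 378 to 438 CPM in control lung and a mean log2 CPM that was 1.70 higher. Cdh1 had an adjusted p of 0.0360, which was 0.0597 to 0.118 without tumour replicates 2 and 4 and control replicates 1, 2 and 3, each left out alone. Against this list Clu was 3.27 ± 0.40 log2 units in tumours and 0.26 ± 0.31 in control lung, a difference of 3.01 with no overlap. Sfn was -4.03 ± 0.14 in tumours and -3.96 ± 0.74 in control lung, a difference of -0.07 with overlapping groups. Cd44 had 2.98 ± 0.37 in tumours and 3.36 ± 0.34 in control lung, a difference of -0.38 with overlapping groups.

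Lgals3, Nupr1, Ndrg1 and Tnip3 were lower against the epithelial list in every tumour than in every control, by differences of -1.79, -2.22, -2.00 and -2.04. The list itself was 1.70 log2 CPM higher in tumours, so a gene that hardly changed falls against it. The log2 fold changes of these members without the list were -0.07, -0.37, -0.30 and -0.23, and none passed. The share of all genes that lie lower in this way, or higher in every tumour as Clu did, was not computed. Sprr1a had a difference of 0.72 with overlap, or 2.11 with a smaller prior count (0.5 in place of 2), so its value is set by that choice. The two-sided exact permutation test gave p = 0.1 for Clu, Lgals3, Nupr1, Ndrg1 and Tnip3, the smallest that 3 against 3 libraries allow (0.15 after adjustment over the 12 ratios computed). The same exact permutation test gave p = 1 for Sfn and p = 0.3 for Cd44 and Sprr1a.

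**Figure D2:**
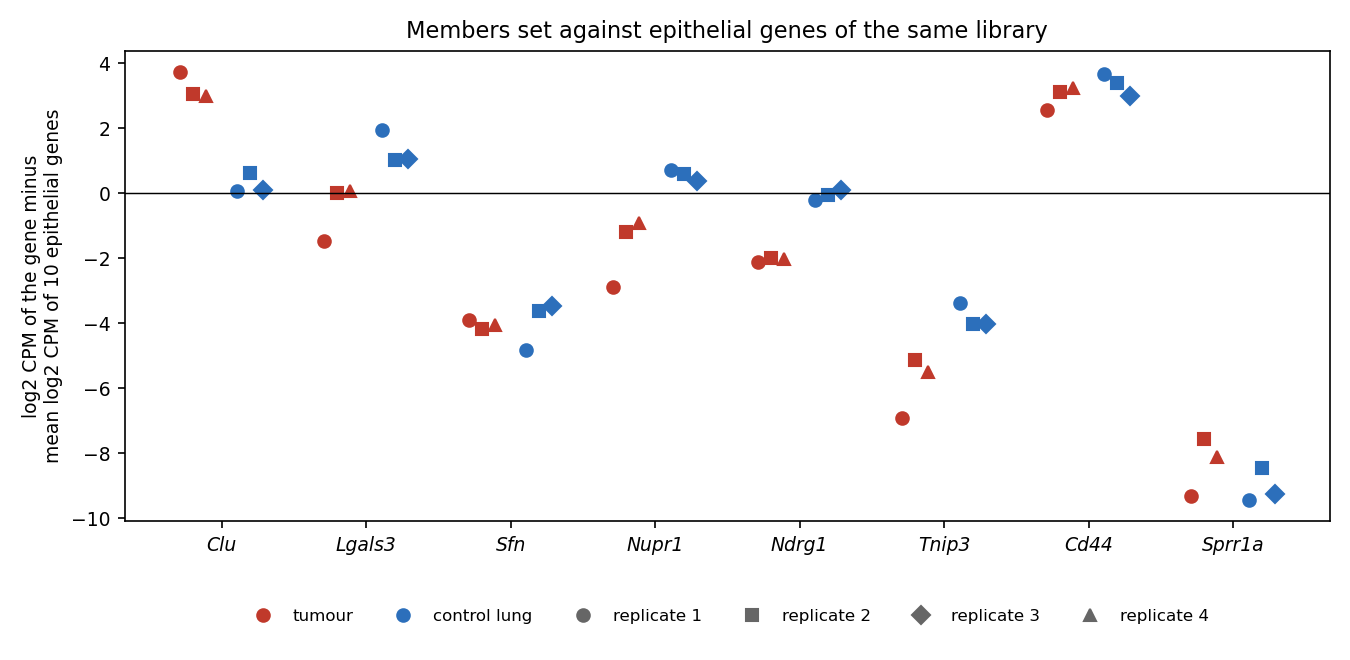
Log2 CPM of each member minus the mean log2 CPM of 10 epithelial genes of the same library; red points on the left are tumours, blue points on the right control lung, and the marker shape gives the replicate. Clu is higher in all tumours (difference 3.01), Sfn and Cd44 overlap (-0.07 and -0.38), and Lgals3, Nupr1, Ndrg1 and Tnip3 are lower in all tumours. The epithelial mean itself was 1.70 log2 CPM higher in tumours.

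Macrophages and other leukocytes also make Lgals3 and Cd44. The macrophage list summed to 398 to 1936 CPM in tumours and 570 to 1726 CPM in control lung, with 3 of 12 genes higher, 2 lower (1 without control replicate 3) and none at 0. Among these, Cd14, the lipopolysaccharide co-receptor, rose by 2.01 ± 0.19 and Mertk, a receptor for dying cells, had -1.32 ± 0.24. The single gene Chi3l3 had 140, 1272 and 829 CPM in tumour replicates 1, 2 and 4. In control replicates 1, 2 and 3 it had 1080, 354 and 158 CPM, so it weighs heavily in the sums of the macrophage list. The lymphocyte and neutrophil list summed to 46.3 to 155 CPM in tumours and 588 to 799 CPM in control lung, with all 8 genes lower, among them Ms4a1 of B cells and Ncr1 of NK cells. Against the macrophage list Lgals3 was 0.85 ± 0.19 log2 units in tumours and 1.21 ± 0.28 in control lung, with overlap (exact permutation p = 0.2). Cd44 was 4.28 ± 0.51 in tumours and 3.23 ± 0.11 in control lung against the same list, with no overlap (exact permutation p = 0.1). Ptprc, the general leukocyte gene, was lower in tumours by a mean difference of -1.91 log2 CPM. Set against it, Lgals3 and Cd44 were both higher in all tumours, by 1.81 and 3.22 log2 units (exact permutation p = 0.1 each). A gene that did not fall with Ptprc comes out higher against it, and Lgals3 itself had a log2 fold change of -0.07 ± 0.41. The share of all genes that do so was not computed, nor the share that lie higher against the macrophage list as Cd44 did.

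Tumour replicate 1 differed from the other tumours in several members at once. It had the highest Clu and Sfn and the lowest Lgals3, Nupr1, Tnip3, Cd44 and Sprr1a of the tumours. Between the highest and lowest tumour the ratio was 4.03 for Sprr1a, on few reads, 3.37 for Tnip3, 3.18 for Nupr1, 2.63 for Lgals3 and 2.05 for Clu, but 1.39 for Sfn and for Cd44 and 1.21 for Ndrg1. The mean log2 CPM of the macrophage list was 4.18 in tumour replicate 1, against 5.67 and 5.16 in tumour replicates 2 and 4. That of the epithelial list was 6.44 against 6.35 and 6.13. The macrophage genes did not all follow their mean. C1qa, C1qb and Cd14 were not lowest in tumour replicate 1 among the tumours, and every other gene of that list was. C1qa had 23.4, 22.2 and 13.2 CPM in tumour replicates 1, 2 and 4. Among controls replicate 1 had the highest Lgals3, Nupr1, Tnip3 and Cd44, the lowest Sfn and the highest macrophage mean, 5.28 against 4.71 and 4.22. The part of macrophage content in these differences was not tested.

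**Figure D3:**
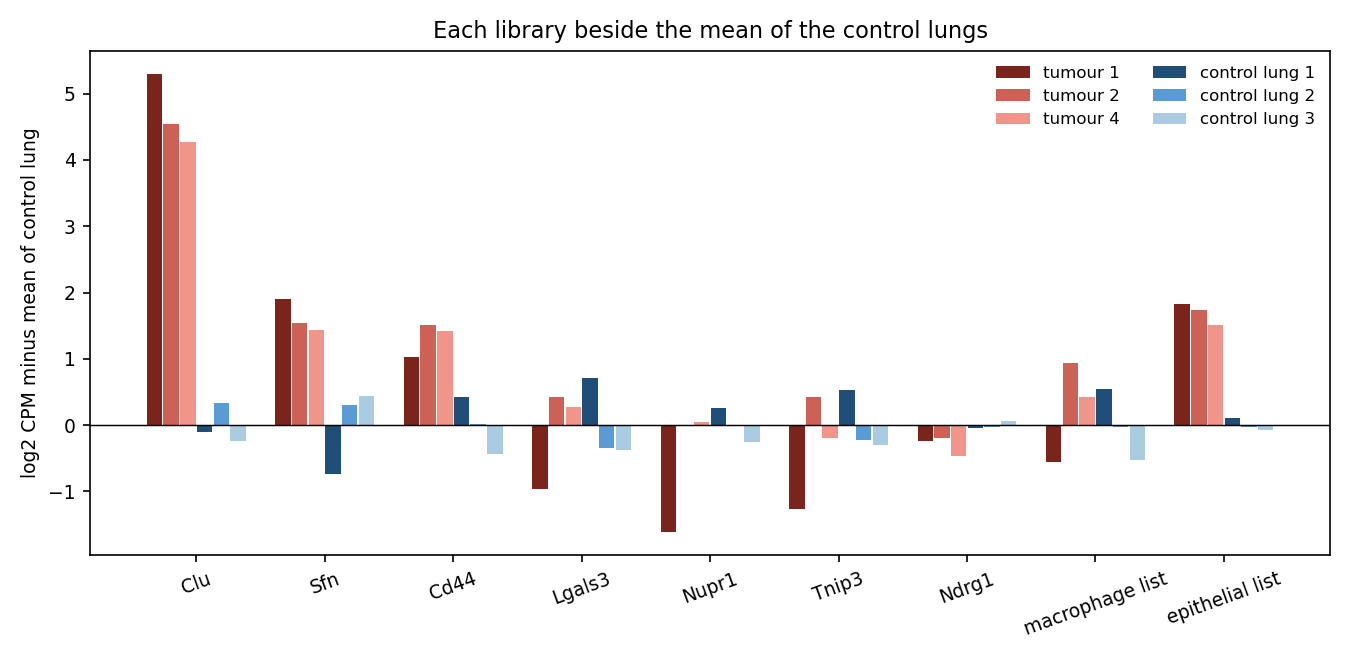
Log2 CPM of 7 members, of the mean of the macrophage list and of the mean of the epithelial list in each library, minus the mean of the control libraries; red bars are tumours and blue bars control lung. Tumour replicate 1 (darkest red) has the largest bar for Clu (5.30) and falls below the control mean for Lgals3 (-0.97), Nupr1 (-1.61), Tnip3 (-1.27) and the macrophage list (-0.55).

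A list of 20 other genes of the transitional state was split evenly: 7 rose, 7 fell and 6 did not pass, with a median log2 fold change of 0.23. The smallest p were those of Ctgf, a matrix protein gene and target of YAP and TGF-beta, which fell by 2.16 ± 0.22 (edgeR adjusted p = 0.000148), and Areg, amphiregulin, an EGF receptor ligand, at 4.10 ± 0.43 (adjusted p = 0.000165). The other names that follow were chosen after their values were seen. Krt18, Krt8, Sox4, Cdkn1a (also in the p53 list), Hbegf and Ccnd1 also rose, by 1.12 to 2.91, and Krt18 had 2.21 without tumour replicate 1. Cryab, AW112010, Tgfb2, Fosl1, Plaur and Cdkn2b also fell, from -0.60 to -2.20. Fosl1 did not pass without tumour replicate 2 or 4 or control replicate 2 or 3 (adjusted p of 0.0698 to 0.132). Plaur did not pass without tumour replicate 1 or 4 or any 1 control replicate (0.0663 to 0.133), nor Cdkn2b without tumour replicate 2 or 4 or any 1 control replicate (0.0591 to 0.117). AW112010 had -3.03 without tumour replicate 2. The number that fell was 4 without tumour replicate 4, control replicate 2 or control replicate 3. Cldn4, a claudin used as a marker of this state, had 2.26 ± 0.79 with an adjusted p = 0.0504, and passed without tumour replicate 2 (0.0414) or 4 (0.00571).

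**Figure D4:**
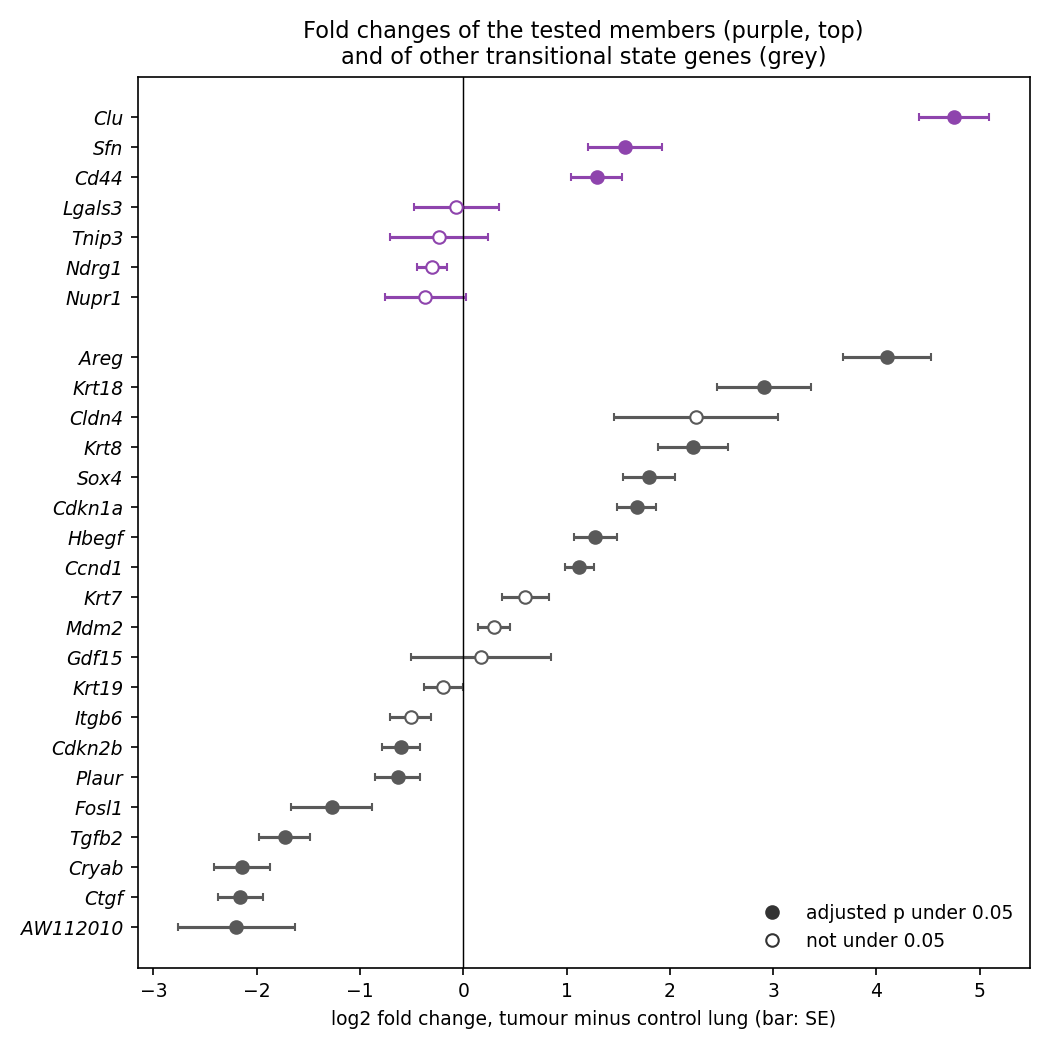
Log2 fold change with its SE (tumour minus control lung, n = 3 each) of the 7 tested members (purple, top) and of 20 other transitional state genes (grey, below), ordered by size; filled points have an adjusted p under 0.05. Of the members 3 are filled and lie above 0; of the other genes 7 filled points lie above 0 and 7 below.

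**Figure D5:**
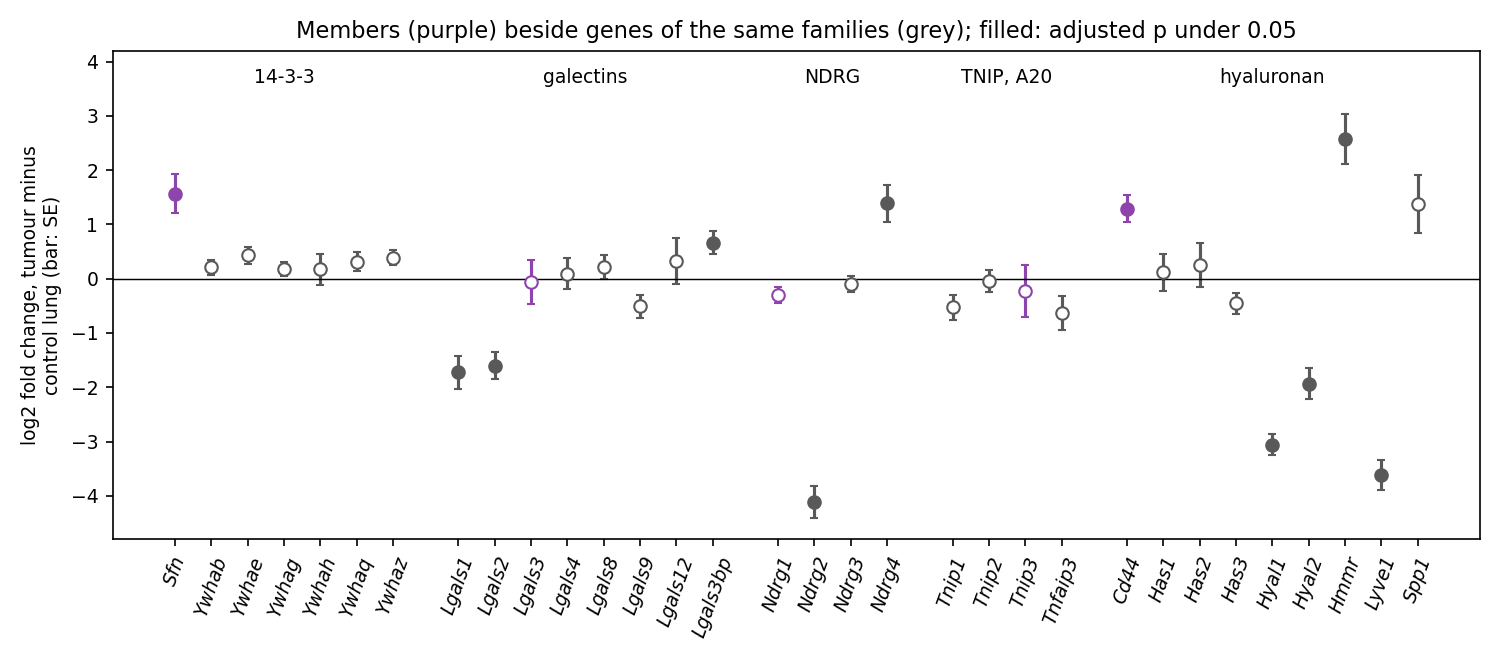
Log2 fold change with its SE (tumour minus control lung) of the members (purple) and of the tested genes of their families (grey): 14-3-3 genes with Sfn, galectins with Lgals3, NDRG genes with Ndrg1, TNIP genes and A20 with Tnip3, and hyaluronan genes with Cd44. Filled points have an adjusted p under 0.05; Sfn (1.57) is the only filled point among the 14-3-3 genes, and none is filled in the TNIP group.

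For each tested member, the gene with the most similar profile over the 6 libraries was found by the root mean square (RMS) difference of centred log2 CPM. For Clu it was Itih2, a hyaluronan-binding inter-alpha-trypsin inhibitor heavy chain, with an RMS difference of 0.17. Itih2 had 168, 86.0 and 91.8 CPM in tumour replicates 1, 2 and 4, against 4.10, 6.02 and 4.53 CPM in control lung (log2 fold change 4.56 ± 0.32). The nearest gene was Lrp12 for Cd44 (RMS 0.090), Nr4a3 for Lgals3 (0.10) and Mir28 for Sfn (0.17), the last with under 1 CPM in every library. It was Gm16096 for Nupr1 (0.073), AI837181 for Ndrg1 (0.032) and Sh2d1b2 for Tnip3 (0.078), the last also with under 1 CPM in every library. These are descriptions over 6 libraries, and a small difference is easily reached by a member that hardly varied.

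The calls of Clu, Sfn and Cd44 did not rest on 1 library. Leaving out each library in turn kept the log2 fold change of Clu at 4.42 to 4.96, of Sfn at 1.29 to 1.81 and of Cd44 at 1.12 to 1.53, with adjusted p of at most 0.0265. Without tumour replicate 2, the library that stood apart in sex-linked genes, Clu, Sfn and Cd44 had 4.86, 1.62 and 1.20 (edgeR adjusted p = 4.80e-05, 0.0149 and 0.010).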

How the data were processed

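Per the labels, RNA was extracted from lung or tumour with Trizol and a column kit, and libraries followed Illumina's standard protocols. The deposited table holds raw counts of reads per gene name; per the file headers, the authors counted exons with featureCounts 1.6.5 over GENCODE vM1 (mm9), a read over several names counting for each, with no strand setting, so overlapping and antisense genes can share reads. STAR, edgeR, limma and R 3.6.0 are named in the submitters' processing notes. All columns were used; 0 were left out. Exon length came with the deposited table.

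Counts were tested with edgeR 4.0.16 in R 4.3.3: filterByExpr (minimum count 10), TMM scaling, quasi-likelihood F test of group over all 20001 genes passing, Benjamini-Hochberg adjustment, threshold 0.05. SEs come from the F statistic. CPM uses TMM-scaled library sizes; log2 CPM adds a prior count of 2. Of 199 list entries, 198 matched, 1 of them through an older name. The test was also run on simulated counts in which far fewer genes changed than were called here. That run does not check the scaling or the calls where so many genes differ. Alternatives were DESeq2 1.42.0, limma-voom (limma 3.58.1), other scalings, filters and thresholds, left-out libraries and a replicate block.

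Members and lists were chosen with earlier results of these data known. Named genes are the members, genes of their families, the 2 genes of smallest p of each other list and the nearest profile of each member. Other transitional state genes, Cdh1, Krt5, Ptprc, Chi3l3, C1qa and C1qb were named after their values were seen. Counts per list without each library were added after seeing the data. Lists for the other cell types gave 5 of 5 club, 6 of 6 ciliated, 4 of 4 endothelial, 4 of 5 fibroblast and 5 of 5 mesothelial genes lower in tumours, led by Scgb3a2 and Gabrp, Ccdc153 and Tppp3, Cdh5 and Kdr, Tcf21 and Pdgfra, and Gpm6a and Upk3b; those of AT2, AT1 and epithelial cells were led by Sftpd and Abca3, Cav1 and Hopx, and Esrp1 and Spint1.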

Additional observations from a re-analysis of the deposited data

How the results depend on the processing

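Clu was called higher under every alternative run, with log2 fold changes of 4.42 to 4.96. Sfn and Cd44 were called in all but the 2-fold threshold test and the fit with the replicate number as a block. In these fits 1 member was higher, beside 3 in the edgeR test. Sprr1a was a further call where it could be tested, apart from the fit without control replicate 3 (adjusted p = 0.0545), so that leaving out each library gave 3 to 4 members higher and 0 to 0 lower. The counts of other transitional state genes lower, 7, became 3 at an adjusted p under 0.01, 3 in the 2-fold test and 3 with the replicate block; leaving out each library gave 4 to 6 (and 7 to 9 higher).

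The replicate numbers 1 and 2 are shared by the groups, and the labels do not say whether same-numbered libraries were paired. The deviations of same-numbered libraries from their group means had r = -0.18 and -0.01. With 3 libraries per group, these values cannot tell whether the libraries were paired. With the block Sfn had 1.95 (adjusted p = 0.0807) and Cd44 1.05 (0.105), with 1092 genes called higher and 2549 lower in all.

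Fold changes turned sign only in members that did not pass. Leaving out each library gave -0.31 to 0.39 for Lgals3 (0.28 without tumour replicate 1, 0.39 without control replicate 1), -0.61 to 0.032 for Nupr1 (0.032 without tumour replicate 1) and -0.69 to 0.15 for Tnip3 (0.15 and 0.08 without the same libraries as Lgals3). Leaving out each library gave -0.49 to 0.19 for Sfn against the epithelial list, turning to 0.10 and 0.19 without control replicates 2 and 3; the cause was not tested. Total count scaling moved the median of all genes to -0.10, from 0.01, and turned no member's sign. At this depth Sprr1a did not reach the low count filter with all libraries.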
